A study of Danio rerio with 2 samples.

Results

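The GATA factors of zebrafish were followed across open chromatin regions of an npas4l mutant and a wild type embryo. The members were gata1a, gata2a, gata2b, gata3, gata4, gata5 and gata6. A region was taken as theirs when the deposited table assigned it to the gene, which gave 11 regions. A region with no assigned gene was added when its centre lay within 50 kb of the gene's transcription start site (TSS) and no other TSS of the table was nearer, which gave 19 more. All 7 genes had at least 1 region, and together they held 30 of the 35854 regions of the table. Open chromatin was read out by ATAC-seq, a method that lets Tn5 transposase insert adapters where DNA is accessible, in single embryos at the 1-somite stage, taken whole apart from chorion and yolk. The embryo of the Npas4l-KO library carried the bns297 allele of npas4l on both chromosomes, and that of the WT library was wild type. The growth protocol in the labels gives the AB strain, in the same words for both libraries. Each genotype had 1 library, which allows no test between genotypes, and the genotypes rest on the labels since npas4l itself was not analysed here.

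GATA factors are zinc finger proteins that bind DNA around the letters GATA. In vertebrates they form a pair of subfamilies. Gata1, Gata2 and Gata3 act in blood and also in ectoderm and kidney tissues, and Gata4, Gata5 and Gata6 act in heart and endoderm. Npas4l, the bHLH-PAS factor missing in cloche mutants, stands upstream of blood and endothelial fate, and blood and heart progenitors arise from neighbouring parts of the lateral plate mesoderm. The comparison asked whether chromatin at the GATA genes of blood and at those of heart and endoderm differed when Npas4l function was missing.

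Values are normalised read counts per region as the authors scaled and rounded them. The recovered reads in regions came to 7066666 in the Npas4l-KO and 7853828 in the WT library, and the median region held 94 normalised reads in both. Each log2 ratio is Npas4l-KO over WT with 1 added to both values, followed by a 95% Clopper-Pearson interval of the split of the reads. It covers counting error only, because 1 library per genotype gives no spread between embryos. Amplified reads that carry no molecular identifier cannot be counted as separate molecules, so it may be too narrow even for that. The interval left out 0 for 38% of all regions. All tissues of a deyolked embryo were pooled, so fewer cells with an open region and less openness per cell cannot be told apart.

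Regions of the first subfamily (gata1a, gata2a, gata2b, gata3) mostly had log2 ratios below 0. Regions of the heart and endoderm subfamily (gata4, gata5, gata6) went both ways. The first is called blood-side here as a label only, since its genes also act in ectoderm and kidney tissues. Of 15 regions in the first subfamily, 12 had a log2 ratio below 0, against 8 of 15 in the second. Of all 35854 regions, 49.3% lay below 0. All but 1 region of the first subfamily lay beyond 1 kb from the TSS. Of all regions beyond 1 kb given to a gene by the rule above, 57.1% lay below 0. In the first subfamily the counting interval lay wholly below 0 for 6 regions and wholly above it for 1, and such regions are called lower or higher beyond the interval. In the second, 1 was lower and 4 were higher. The same rule called 18.0% of all regions lower and 20.0% higher. With the trends of level and promoter class removed, the 6 lower blood-side regions became 3, all of gata3. No region of gata1a, gata2a or gata2b kept the call under that setting. The 1 higher region became 0 when libraries were scaled by their totals or by the highest 10% of regions. The shares of all regions beyond the interval were not computed under these settings, so these counts have no background beside them.

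Taken as 1 family, the GATA genes lay close to that background. Of the 30 regions, 7 (23.3%) were lower and 5 (16.7%) higher beyond the counting interval, which is near the shares of the table. Most members lie away from a TSS, and such regions ran lower across the table. Among 15802 regions beyond 1 kb that the same rule gives to a gene, 22.8% were lower and 15.6% higher beyond the interval, with a median of −0.10. The 26 GATA regions beyond 1 kb had a median of −0.13. Only 1 GATA region passed the 2-fold rule, a gata3 region, and it was lower. The rule took in 4.03% of the table on the lower side and 3.78% on the higher side.

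**Figure D1:**
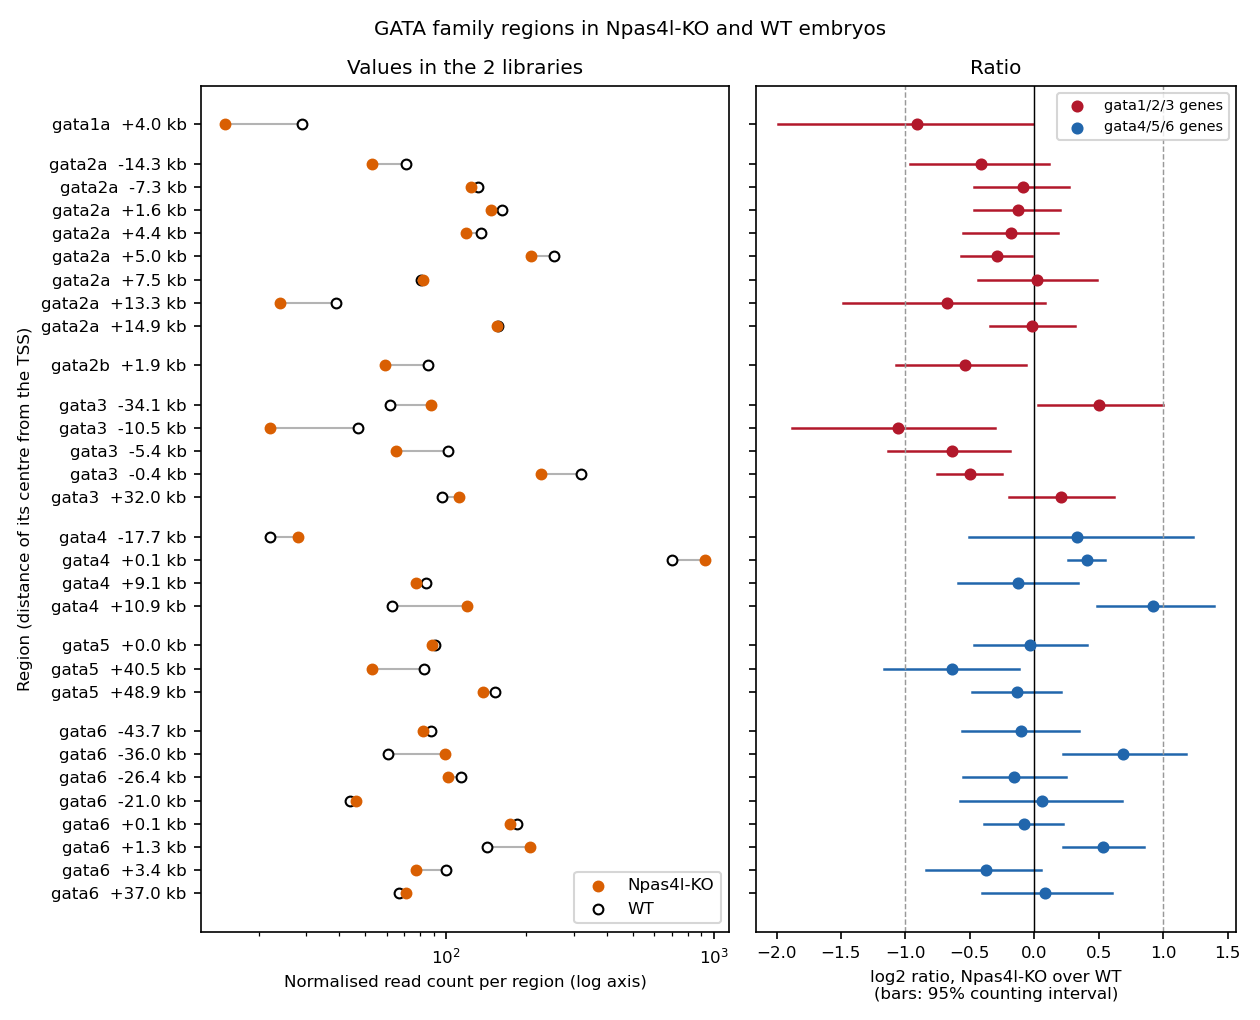
Normalised read count of each GATA region in the Npas4l-KO and WT libraries (left, log axis) and its log2 ratio, Npas4l-KO over WT, with the 95% counting interval (right), 1 row per region labelled by its distance from the TSS. The dashed lines mark 2-fold. Points of gata1a, gata2b and most of gata3 lie left of 0, those of gata2a sit close to or below 0, and gata4 holds the region with the highest ratio, 0.92.

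Sums and medians describe the same regions again, and the difference between the subfamilies had another size in each. By gene the subfamilies did not separate fully, since the sum of gata5 (−0.22) lay below that of gata2a (−0.18). Of the heart and endoderm genes, only gata4 (0.41) had a sum whose interval lay wholly above 0. The gata1/2/3 regions summed to 1500 normalised reads in Npas4l-KO and 1774 in WT, a log2 ratio of −0.24 (−0.34 to −0.14). The gata4/5/6 regions summed to 2294 in Npas4l-KO and 1998 in WT, a log2 ratio of 0.20 (0.11 to 0.29). These counting intervals do not overlap. A single region at the gata4 TSS carries much of the second sum, and without it the sums were 1363 and 1296, a log2 ratio of 0.07 (−0.04 to 0.19). The median over regions was −0.29 for gata1/2/3 and −0.03 for gata4/5/6, a difference of −0.26. Beside these, the median was 0 over all regions and −0.10 over those beyond 1 kb that the same rule gives to a gene. The 95% order-statistic intervals of these medians overlap (−0.64 to −0.02 for gata1/2/3 and −0.14 to 0.41 for gata4/5/6). Leaving out regions with a mean under 50 gave medians of −0.16 for gata1/2/3 and −0.08 for gata4/5/6, a difference of −0.07. Regions are not replicates, and no test of this difference was made.

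Among the blood-side genes, gata1a, which drives red cell formation, had the lowest ratio and the thinnest data. Its only region, on chromosome 11 from 25177098 to 25177313, lies inside the gene 4.03 kb from the TSS. It held 15 normalised reads in Npas4l-KO and 29 in WT, a log2 ratio of −0.91 (−1.99 to −0.01). Both libraries were low there, and its ratio ranked at percentile 17.8 among regions of similar depth (its level decile, regions being sorted by mean level into 10 equal classes). The interval no longer left out 0 once the trend of the ratio with level was removed (−0.71).

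The gata2 pair differed in how many regions they had. In gata2b, the paralog linked to hemogenic endothelium, the single region lies inside the gene on chromosome 6 from 40798244 to 40798590, 1.94 kb from the TSS. It held 59 normalised reads in Npas4l-KO and 86 in WT, a log2 ratio of −0.54 (−1.07 to −0.06). It too lost its place beyond the interval when the trends of level and promoter class were removed (−0.38). The paralog gata2a, a factor of blood and endothelial progenitors, had 8 regions spread from 14.3 kb upstream to 14.9 kb downstream of its TSS on chromosome 11, and 7 of them lay below 0.

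Most gata2a regions differed by little. The deepest, inside the gene at 3841108 to 3841430, held 208 normalised reads in Npas4l-KO and 254 in WT, a log2 ratio of −0.29 (−0.57 to −0.02), and was the only one beyond its interval. That call was lost under the same setting (−0.24). Its neighbour at 3841741 to 3842034 held 119 in Npas4l-KO against 135 in WT, and the intragenic region nearest the TSS, at 3844530 to 3844939, held 148 in Npas4l-KO against 162 in WT. Both intervals included 0.

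Further into the gata2a gene, the region 7.46 kb from the TSS held 82 normalised reads in Npas4l-KO and 81 in WT, the one 13.3 kb away 24 in Npas4l-KO against 39 in WT, and the one 14.9 kb away 155 in Npas4l-KO against 157 in WT. Upstream, the region 7.33 kb away held 124 in Npas4l-KO against 132 in WT and the one 14.3 kb away 53 in Npas4l-KO against 71 in WT. The ratios of these 5 ran between −0.68 and 0.02, with the lowest at the shallow region, and each interval included 0. Summed over all 8 regions, gata2a held 913 in Npas4l-KO and 1031 in WT, a log2 ratio of −0.18 (−0.31 to −0.05).

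The gata3 gene, a factor of non-neural ectoderm, pronephric duct and nervous system, showed the clearest local pattern. Its 3 regions between the TSS and 10.5 kb upstream on chromosome 4 were all lower in Npas4l-KO beyond their intervals. The region 0.371 kb upstream of the TSS, from 25075514 to 25075851, held 226 normalised reads in Npas4l-KO and 320 in WT, a log2 ratio of −0.50 (−0.76 to −0.25). It ranked at percentile 3.7 in its level decile, the lowest such place among the 30 GATA regions.

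Farther upstream the gata3 differences were larger and the reads fewer. The region 5.36 kb away, from 25080491 to 25080858, held 65 normalised reads in Npas4l-KO and 102 in WT, a log2 ratio of −0.64 (−1.13 to −0.19). The region 10.5 kb away, from 25085677 to 25085960, had 22 in Npas4l-KO against 47 in WT, which is −1.06 in log2 (−1.88 to −0.31). That last one is the GATA region past the 2-fold rule, and its ratio missed 2-fold with either trend removed or with a pseudocount of 5.

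The distant gata3 regions did not share this direction. The region 34.1 kb upstream, from 25109144 to 25109665, held 88 normalised reads in Npas4l-KO and 62 in WT, a log2 ratio of 0.50 (0.03 to 1.001), and its interval included 0 when libraries were scaled by their totals or by the highest 10% of regions. The region 32.0 kb from the TSS on the other side held 112 in Npas4l-KO against 97 in WT (0.21, −0.20 to 0.62). The intervals of the 3 lower regions do not overlap that of the farthest upstream region. Summed over its 5 regions, gata3 held 513 in Npas4l-KO and 628 in WT, a log2 ratio of −0.29 (−0.46 to −0.12).

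**Figure D2:**
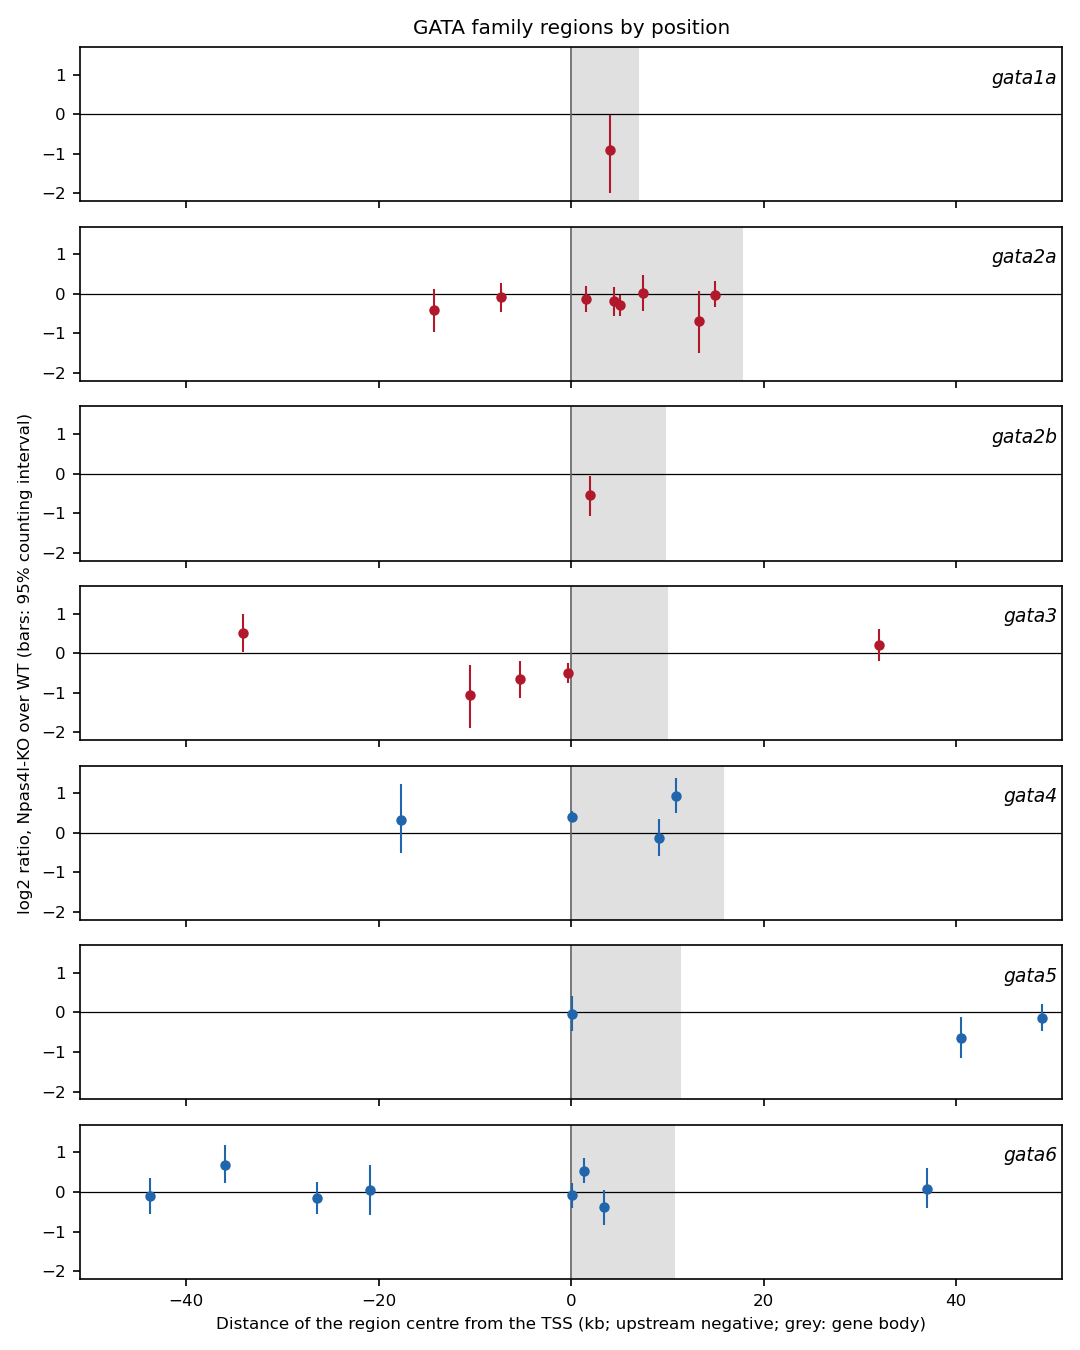
Log2 ratio, Npas4l-KO over WT, of each GATA region (vertical axis, bars are 95% counting intervals) against the distance of its centre from the TSS in kb, upstream negative, with the gene body in grey and 1 panel per gene. The lower gata3 regions stand together within 10.5 kb upstream of the TSS, and the regions 34.1 kb upstream and 32.0 kb downstream lie above 0.

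In the heart and endoderm subfamily, gata4 stood highest in the mutant library. This factor of heart muscle and gut tube formation had 4 regions on chromosome 20. The region over its TSS, from 53161946 to 53162717, was the deepest and widest of the family, with 931 normalised reads in Npas4l-KO and 702 in WT, a log2 ratio of 0.41 (0.26 to 0.55). It ranked at percentile 90.7 in its level decile. The intragenic region 10.9 kb from the TSS, from 53151395 to 53151692, had 120 in Npas4l-KO against 63 in WT, which is 0.92 in log2 (0.49 to 1.39), the highest of the 30.

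The other gata4 regions differed by less than counting error. The intragenic region 9.12 kb from the TSS held 77 normalised reads in Npas4l-KO and 84 in WT. The region 17.7 kb upstream held 28 in Npas4l-KO against 22 in WT. Summed over 4 regions, gata4 held 1156 in Npas4l-KO and 871 in WT, a log2 ratio of 0.41 (0.28 to 0.54). The ratio was also 0.41 without the TSS region. Of the regions then left, only the one 10.9 kb from the TSS was beyond its interval (120 in Npas4l-KO against 63 in WT).

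The gata5 gene, which zebrafish need for heart and endoderm formation, leaned the other way. Its TSS region on chromosome 23, from 7445586 to 7445990, held 89 normalised reads in Npas4l-KO and 91 in WT, a log2 ratio of −0.03 (−0.46 to 0.41). The region 40.5 kb downstream of the TSS, from 7486055 to 7486367, had 53 in Npas4l-KO against 83 in WT, which is −0.64 in log2 (−1.16 to −0.12), and was the only one of the heart and endoderm subfamily that was lower beyond its interval. The region 48.9 kb downstream held 138 in Npas4l-KO against 152 in WT. The sum over the 3 regions was 280 in Npas4l-KO and 326 in WT, with an interval that included 0 (−0.22, −0.45 to 0.02).

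Regions of gata6, a factor of heart and endoderm with gata4 and gata5, split in both directions within the same locus on chromosome 2. The intragenic region 1.34 kb from the TSS, from 4367257 to 4367942, held 207 normalised reads in Npas4l-KO and 143 in WT, a log2 ratio of 0.53 (0.22 to 0.85). The intragenic region 3.4 kb from the TSS, from 4369519 to 4369803, held 77 in Npas4l-KO against 100 in WT (−0.37, −0.84 to 0.05). These intervals do not overlap, although the regions lie in the same gene.

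The TSS region of gata6 itself, from 4366058 to 4366567, held 174 normalised reads in Npas4l-KO and 184 in WT, with an interval that included 0. Upstream, the region 36.0 kb away, from 4329942 to 4330525, had 99 in Npas4l-KO against 61 in WT, which is 0.69 in log2 (0.23 to 1.18). The remaining 4 regions, at 43.7 kb, 26.4 kb and 21.0 kb upstream and 37.0 kb downstream, had ratios between −0.16 and 0.08, none beyond its interval. Summed over 8 regions, gata6 held 858 in Npas4l-KO and 801 in WT, a log2 ratio of 0.10 (−0.04 to 0.24).

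Ordered by the log2 ratio of their sums, the genes ran gata1a, gata2b, gata3, gata5, gata2a, gata6 and gata4, from lowest to highest. Among the first 5, each counting interval overlapped that of its neighbour. The interval of gata6 began above the end of that of gata2a by under 0.01, and the interval of gata4 began above that of gata6. The interval of gata5 lay below that of gata4 and overlapped that of gata6.

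**Figure D3:**
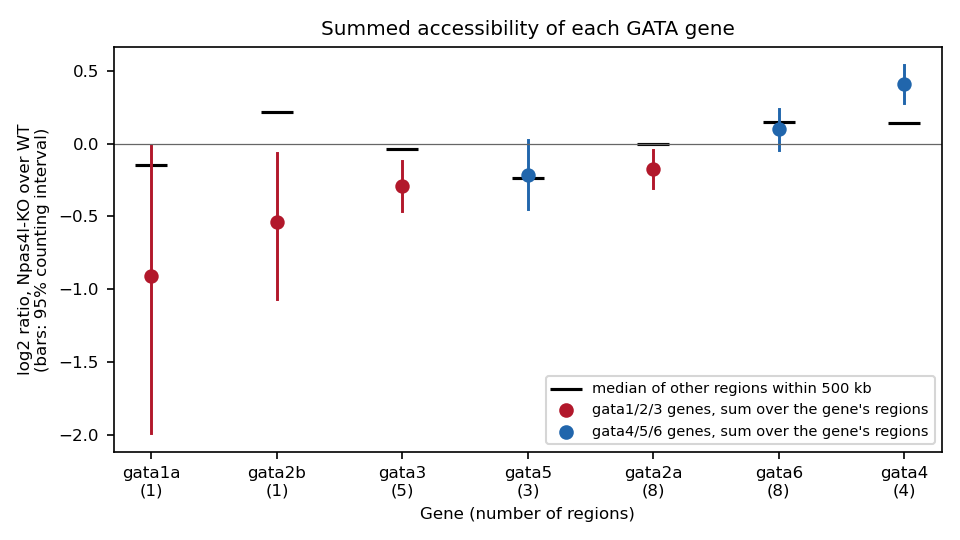
Log2 ratio, Npas4l-KO over WT, of the reads summed over all regions of each GATA gene (points, with 95% counting intervals) in order of the ratio, and the median log2 ratio of the regions of other genes or of no gene within 500 kb of the TSS (black dashes). The point of gata4 at 0.41 is the highest and that of gata1a at −0.91, from 1 region, the lowest.

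Neighbouring regions had ratios on the same side as some of these genes. The values of the genes here are log2 ratios of summed reads, while those of the neighbours are medians over regions. Around gata5, the 21 regions of other genes or of no gene within 500 kb of the TSS had a median log2 ratio of −0.24, close to the −0.22 of gata5 itself, and 81% of them lay below 0. Around gata6, 28 such regions had a median of 0.15, beside 0.10 for the gene. Around gata4, 30 had a median of 0.14, beside 0.41. Around gata1a, 53 had a median of −0.14. As medians over their own regions, gata4 had 0.37, gata5 −0.14 and gata6 −0.009. By that measure gata6 lay on the other side of 0 from its neighbours, and the interval of its sum included 0.

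Set beside the sums, only at gata2b did the surroundings lie on the other side of 0. Their median was 0.21 over 40 regions, beside −0.54 for the gene. The 33 around gata2a had a median of 0, beside −0.18 for the gene, and the 14 around gata3 a median of −0.04, beside −0.29. The part of the neighbourhood in any of these ratios was not tested.

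The gata4 TSS region had the most reads per length in Npas4l-KO, while in WT it and the gata3 TSS region lay close together. Per kb of region, the gata4 TSS region was the most accessible of the family in Npas4l-KO, at 1208 normalised reads per kb, followed by the gata3 TSS region at 671. In WT the gata3 TSS region was first at 949.6 per kb and the gata4 TSS region second at 911. These WT values lie close together, the regions differ in width (337 and 771 bp), and no interval was made for values per kb. The order in WT is thus not settled. The lowest in Npas4l-KO was the gata1a region, with 69.8 per kb there and 135 in WT. The lowest in WT was the upstream gata4 region, with 124 per kb in Npas4l-KO and 97.8 in WT. Regions within 1 kb of a TSS were held by 4 genes, gata3, gata4, gata5 and gata6. None of the regions of gata1a, gata2a or gata2b used here lay that close.

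The split between the subfamilies was seen inside and upstream of the genes, on small counts from few genes. Most blood-side regions inside gene bodies were of gata2a, and all upstream ones were of gata2a or gata3. Downstream, the blood-side subfamily had only 1 region, of gata3. Of the 12 regions inside gene bodies and beyond 1 kb from the TSS, 7 of 8 in the blood-side subfamily lay below 0, against 2 of 4 in the heart and endoderm subfamily. Upstream, it was 4 of 5 against 2 of 5. Downstream, it was 0 of 1 against 2 of 3, and within 1 kb of the TSS 1 of 1 against 2 of 3. Of all regions beyond 1 kb that the same rule gives to a gene, 57.1% lay below 0. Of all regions within 1 kb of the TSS of their assigned gene, 36% did. The 11 regions that the table itself assigns included 6 of 6 blood-side regions below 0 (median −0.39). In the heart and endoderm subfamily, 3 of 5 lay below 0 (median −0.03). Of all assigned regions beyond 1 kb, 49.9% lay below 0, with a median of 0. Among regions added by distance, 6 of 9 blood-side and 5 of 10 heart and endoderm regions lay below 0, beside 59.9% of all such regions in the table.

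**Figure D4:**
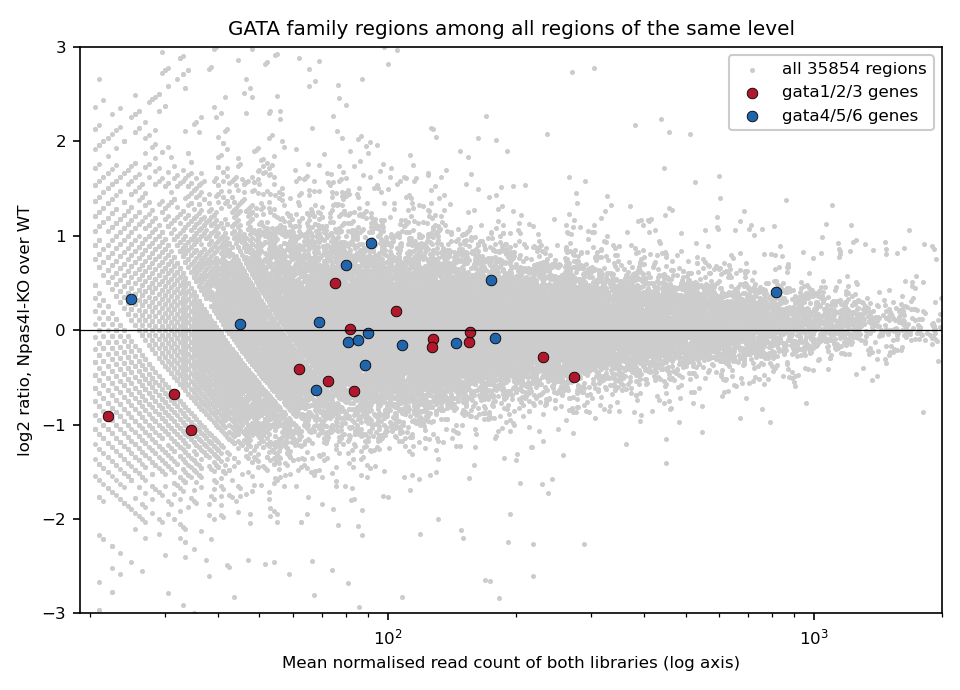
Log2 ratio, Npas4l-KO over WT, against the mean normalised read count of both libraries (log axis) for all regions (grey) and the GATA regions by subfamily. All 30 GATA regions lie inside the grey cloud, and 316 regions outside the axes are not drawn.

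Every GATA region fell between the 3.7 and 95.7 percentile of the log2 ratio among regions of its own level decile. Ratios as far from 0 as these were thus found at many other regions of the same level.

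Genes that work with GATA factors or share their tissues were described by their assigned regions, for which the blood-side subfamily had a median of −0.39. Of all regions of the table, 49.3% lay below 0, with 18.0% lower and 20.0% higher beyond the interval. For assigned regions beyond 1 kb these shares were 49.9%, 18.7% and 19.7%. Within 1 kb of the TSS they were 36%, 9.67% and 27.2%. For the partners in blood, 10 of 13 listed genes had 12 assigned regions, with 9 below 0 and a median of −0.20. Of these regions, 3 (25%) were lower and 2 (16.7%) higher beyond the interval. The lowest lay 3863 bp from the TSS of lmo2, which bridges Gata1 and Tal1. It held 16 normalised reads in Npas4l-KO and 51 in WT (−1.61, −2.60 to −0.82). The highest was the promoter of tcf12, an E protein that pairs with Tal1, with 103 in Npas4l-KO against 74 in WT (0.47, 0.03 to 0.93). The deepest, at the E protein gene tcf3a, held 2540 in Npas4l-KO against 2106 in WT (0.27, 0.19 to 0.35).

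Blood genes that act downstream of GATA factors were few in the table. For 8 of 16 listed genes there were 9 regions, 5 below 0, with a median of −0.06. Of these regions, 2 (22.2%) were lower and 1 (11.1%) higher beyond the interval. The lowest was at znfl2a (36 normalised reads in Npas4l-KO and 138 in WT) and the highest at the globin gene hbae3 (35 in Npas4l-KO against 23 in WT), whose interval included 0. The deepest was the promoter of hmbsa, a heme synthesis gene, with 672 in Npas4l-KO against 734 in WT.

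Partners and targets in heart had 17 regions at 11 of 13 genes, 9 below 0, with a median of −0.03. Of these regions, 5 (29.4%) were lower and 1 (5.88%) higher beyond the interval. The lowest was at tbx20, a cardiac T-box gene, with 18 normalised reads in Npas4l-KO and 36 in WT, and the highest at zfpm2b, a GATA cofactor gene of the Fog type, with 54 in Npas4l-KO against 37 in WT. The deepest, at the chromatin remodelling gene smarcd3b, held 487 in Npas4l-KO against 476 in WT. Once unassigned regions within 50 kb were included, the heart median was −0.25 over 36 regions.

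Among 14 regions of the endoderm list, 2 (14.3%) were lower and 1 (7.14%) higher beyond the interval. The list covered 8 of 11 genes, with 6 regions below 0 and a median of 0.03. Its extremes were a foxa1 region, with 30 normalised reads in Npas4l-KO and 70 in WT, and a foxa2 region, with 64 in Npas4l-KO against 36 in WT. The deepest, at the chemokine receptor gene cxcr4a, held 342 in Npas4l-KO against 355 in WT.

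Other tissues that use GATA genes were listed as well. Non-neural ectoderm, where gata2 and gata3 genes are also active, had 15 regions at 10 of 11 genes, 11 below 0, with a median of −0.14. Of its regions, 6 (40%) were lower and 3 (20%) higher beyond the interval. The claudin gene cldni held both its lowest region (50 normalised reads in Npas4l-KO and 117 in WT) and its highest (283 in Npas4l-KO against 23 in WT), and the deepest, at foxi1, held 396 in Npas4l-KO against 321 in WT. That share of lower regions, 40%, was the highest of these lists. The order-statistic interval of the ectoderm median included 0 (−0.75 to 0.27). So did that of every other list with more than 1 region, such as −0.32 to 0.05 for blood partners. A median below 0 was also not particular to this list. That of the blood partners was lower (−0.20, with 9 of 12 regions below 0), while that of the endoderm list lay above 0 (0.03). The part of ectoderm in the ratios of the gata3 regions near the TSS was not tested. In the yolk syncytial layer list 1 of 7 genes had a region, at ttr, with 40 in Npas4l-KO against 14 in WT. The yolk had been removed from these embryos, and how much of this layer stayed with each was not tested.

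Genes for other proteins with a GATA-type zinc finger, which are mostly broadly expressed chromatin proteins, had 14 regions at all 9 genes. Of these regions, 7 lay below 0, 3 (21.4%) were lower and 4 (28.6%) higher beyond the interval, with a median of −0.02. The lowest was at zglp1 (39 normalised reads in Npas4l-KO and 54 in WT), the highest at gatad2ab (38 in Npas4l-KO against 19 in WT) and the deepest at gatad2b (1044 in Npas4l-KO against 983 in WT). Their assigned regions were as often below as above 0. Once unassigned regions within 50 kb were included, 29 of 36 lay below 0 and the median was −0.27. By that rule the blood-side GATA median was −0.29, with 12 of 15 below 0, so this list leaned about as far. The medians of the other lists were −0.18 for blood partners, −0.11 for downstream blood genes and −0.25 for heart. They were −0.008 for endoderm and −0.18 for non-neural ectoderm.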

How the data were processed

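ATAC-seq libraries came from single deyolked zebrafish embryos, 1 per genotype, grouped by the genotype in the labels. Tools named in the submitters' processing notes, with no roles, are DESeq2 1.14.1, DESeq, deepTools 2.5.4, MACS2, STAR 2.5.3a, Trimmomatic 0.36 and Picard 2.9.0, and the build is GRCz10 (danRer10). The merging of regions, the handling of duplicates and any shift of read ends are not given in the sources used here. Library values were deposited as whole-number scores, which the values show to be normalised read counts that the authors rounded. The deposited log2 ratio equals log2 of Npas4l-KO + 1 over WT + 1. Per the file headers a further column gives the fraction of a region that overlaps its gene, which was not needed, since gene bounds were used. Coordinates are the deposited ones on GRCz10, and their starts are printed as deposited, with the base from which they count not known.

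Reads were recovered by dividing by 1.06505 (Npas4l-KO) and 0.939 (WT). The first factor was estimated from the Npas4l-KO values. It gave whole reads for 99.96% of Npas4l-KO values up to 4000, counting a match where the scaled read rounds to the value. The WT factor was taken as its reciprocal and was not fitted to the WT values. The recovered reads also gave the read totals. Otherwise they served only for intervals. Regions were counted by a 2-fold rule and by whether the interval left out 0. Levels were compared within 10 level deciles. No test of genotype was possible with 1 library each, and no test was made over regions. The procedure was tested on simulated data. These were drawn with counting error only and with the same factors, so they could check neither the WT factor nor any further spread. All regions of the members were named, and of each list of other genes the lowest, the highest and the deepest assigned region. The members and lists were chosen with earlier results of these data known. Alternatives were other pseudocounts, a level minimum, other scalings and other rules for regions. Sums over regions and their alternatives were added after seeing the data. The scripts ran on matplotlib 3.10.9, scipy 1.17.1, pandas 2.3.3, numpy 2.4.6 and Python 3.11.15.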

Additional observations from a re-analysis of the deposited data

How the results depend on the processing

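The direction of the blood-side median held under all 11 alternatives (−0.52 to −0.16). By construction, some of these could not reverse a median below 0, so they are no check of its direction. A pseudocount cannot change the sign of a ratio. Scaling by the totals or by the highest 10% of regions lowered every ratio, by 0.03 and 0.07. The difference between the subfamily medians stayed below 0 under all 11 (−0.44 to −0.07, the smallest with a minimum of 50 on the mean level). Scaling by the totals or by the highest 10% of regions shifts every region alike. By construction, those settings could not change this difference, so they are no check of it. The heart and endoderm median lay between −0.11 and 0 over 10 alternatives. Of 30 GATA regions, 26 kept their sign under the 4 other scalings, and 8 of 12 beyond the interval stayed there on the same side. The sum of gata4/5/6 was 0.073 without the gata4 TSS region, an alternative chosen after seeing the data. The count of GATA regions at least 2-fold lower was 0 with a pseudocount of 5, a minimum of 50 on the mean level, either trend removed, assigned regions only or added regions limited to 10 kb, and 5 with a 1.5-fold rule. The count at least 2-fold higher was 1 when the trends of level and promoter class were removed and 2 with the 1.5-fold rule. GATA regions lower beyond the interval numbered 4 with those trends removed, 3 of them of gata3, and 4 with assigned regions only. Those higher numbered 2 with assigned regions only and 2 with the 10 kb limit. For these interval counts, the shares of all regions under the same settings were not computed. In the whole table, the regions at least 2-fold lower numbered 1445, against 472 with the minimum of 50, 958 with those trends removed and 4472 with the 1.5-fold rule, and those higher numbered 1357, against 586 with the minimum and 4074 with the 1.5-fold rule. By construction, keeping fewer regions can only lower a count, and the 1.5-fold rule can only raise it. A larger pseudocount pulls every ratio towards 0, so it can only lower a 2-fold count. The minimum kept 26769 of 35854 regions, in proportion a smaller loss than that from 1445 to 472. In the shallowest level decile the quartiles of the log2 ratio were −0.73 and 0.56, against −0.075 and 0.23 in the deepest. Why the counts moved by as much as they did was not tested, nor was the cause for the trends. No paired analysis was possible because each genotype had 1 library, and for the same reason no replicate could be left out. Counting error limits shallow regions most, such as the gata1a region.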
